A study of Mus musculus with 8 samples.

Results

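Ephrins, their Eph receptors, netrins and netrin receptors were followed in the caudal urogenital ridge of mouse embryos that lack Sox11. The genes were taken from a list of 30 names and read from probe sets with exactly 1 gene symbol, and a gene with several such probe sets was read at the brightest of them. Of these, 29 were measured, out of 19356 genes in all, and Ephb2 was not analysed here. They comprised 5 A ephrins, 3 B ephrins, 9 EphA receptors, 4 EphB receptors, 2 netrins and 6 netrin receptors. RNA came from the dissected caudal part of the ridge at E10.75, from 4 wildtype and 4 Sox11-/- replicates, all on a mixed genetic background and untreated. The labels name no allele or Cre line for the knockout, and they do not say whether embryos were pooled within a replicate. The caudal ridge holds the nephric duct, from which the ureteric bud grows, and the mesenchyme around it, and 10 of 11 measured duct markers and 11 of 11 mesenchyme markers gave signal above the median of all genes.

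Ephrins are ligands held on the cell surface, and Eph receptors are receptor tyrosine kinases that bind them on neighbouring cells. A ephrins are tied to the membrane by a lipid anchor and bind mostly EphA receptors, whereas B ephrins cross the membrane and bind mostly EphB receptors, so both cells can receive a signal on contact. Netrins are secreted relatives of laminin that attract cells and axons through DCC and neogenin and repel them through UNC5 receptors. These ligands and receptors are known from axon guidance and are also used in vessel, somite and kidney development. Eph receptors and ephrins can set boundaries between cell groups.

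Each value below is a log2 signal, and a change is the knockout mean minus the wild type mean. Sox11, the targeted gene, gave 11.76, 11.81, 11.72 and 11.86 in wild type replicates 1 to 4 and 9.24, 9.13, 8.93 and 9.12 in knockout replicates 1 to 4. It was thus lower on each array labelled knockout than on any labelled wild type. Its knockout mean, 9.10, still lay above the highest array median over all probe sets, 7.31. The labels do not say whether its probes lie in the deleted part. The arrays correlated with each other across genes at 0.987 to 0.995 (Pearson's r, genes not being independent replicates), and the median SD within a genotype was 0.12.

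Of these genes 3 ligands changed. Ntn1, Efna4 and Efna3 fell in the knockout ridges, by 0.67, 0.45 and 0.55 on the log2 scale, and no member rose past the threshold. None of the 19 measured receptors passed it. The 3 of 29 members lower at a limma adjusted p under 0.05 stood against 1.08% of all genes lower, 0.362% higher and 1.44% in either direction. At an unadjusted p under 0.05, 7 members were lower and 1 was higher, where 9.38% and 7.29% of all genes were, 16.7% together. In 4 members all knockout arrays lay below all wild type arrays, and in 1 all lay above, against 6.47% and 4.04% of all genes, 10.5% together. The median change of the 29 was -0.03, with 14 above 0 and 15 below 0, and the median over all genes was 0.00. In whole tissue, fewer cells of a type and less RNA per cell cannot be told apart.

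**Figure D1:**
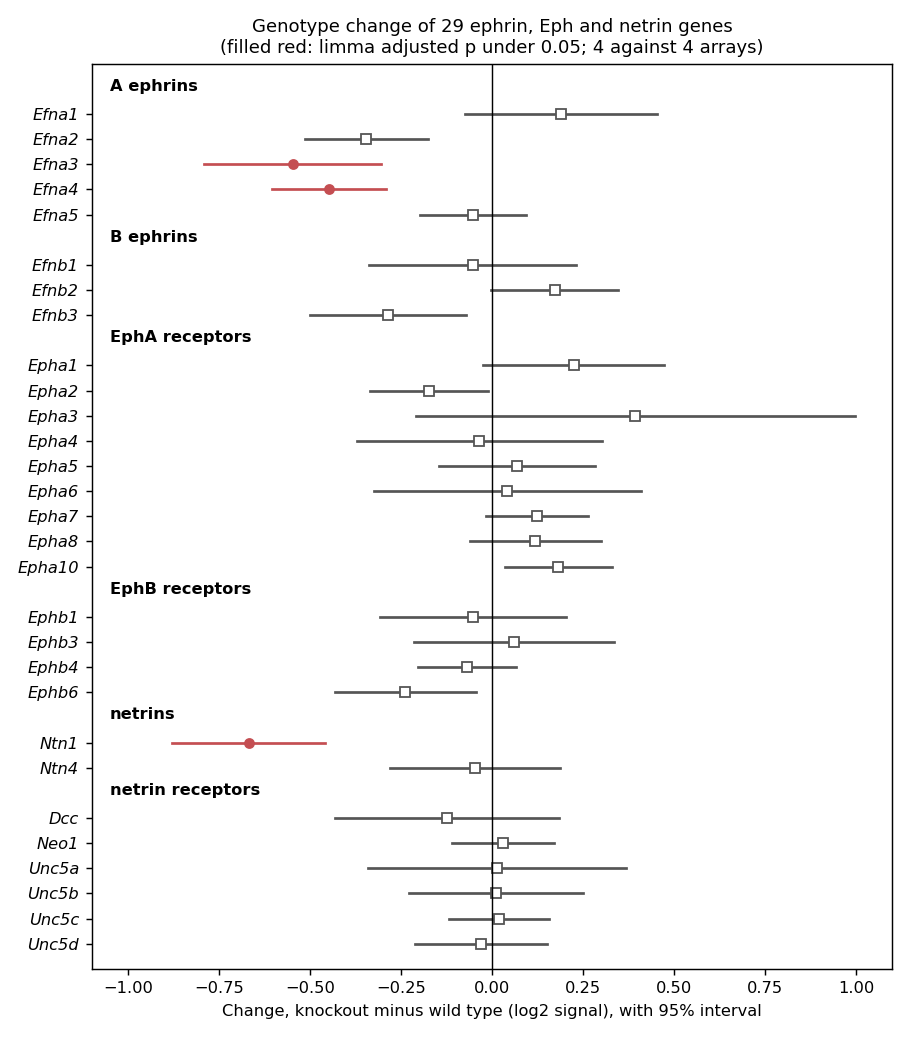
Change of each of the 29 measured genes, knockout minus wild type, on the log2 signal scale (horizontal axis), with its 95% interval, by class. Ntn1 at -0.67, Efna3 at -0.55 and Efna4 at -0.45 are filled because their limma adjusted p was under 0.05. Intervals of the netrin receptors all cross 0.

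Of the 5 A ephrins 2 fell and 3 did not pass. Efna4, a glycolipid-anchored ligand of EphA receptors, gave 9.41, 9.39, 9.50 and 9.28 in wild type and 8.86, 9.0, 9.01 and 8.92 in knockout replicates 1 to 4. The genotypes did not overlap, and the lowest wild type array lay 0.27 above the highest knockout array. Efna4 fell from 9.39 ± 0.09 to 8.95 ± 0.07 (SD, n = 4 each), a 1.36-fold difference (change -0.45, SE 0.07, limma adjusted p = 0.0148). Efna3, a ligand of the same class, gave 9.89, 10.21, 10.25 and 10.11 in wild type and 9.58, 9.29, 9.71 and 9.69 in knockout ridges. Wild type replicate 1 was the lowest of its group and still lay above every knockout array. Efna3 fell from 10.11 ± 0.16 to 9.57 ± 0.19 (SD, n = 4 each), a 1.46-fold difference (change -0.55, SE 0.11, limma adjusted p = 0.0415). The call of Efna3 was close to the threshold: of the 8 fits that left out an array, it passed in 1, the fit without wild type replicate 1 (limma adjusted p = 0.0338), and missed in the other 7 (up to 0.114, without wild type replicate 2). Efna4 missed the threshold without knockout replicate 1 (limma adjusted p = 0.0531) and without knockout replicate 4 (0.0566).

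Efna2, a further A ephrin, gave 10.28, 10.24, 10.36 and 10.39 in wild type and 9.84, 9.93, 10.13 and 9.98 in knockout ridges. The knockout arrays all lay below the wild type arrays, the nearest being knockout replicate 3. Its change of -0.35 (SE 0.08) had a limma adjusted p of 0.0600 and did not pass. Efna1, which is often found in endothelium, gave 9.38, 9.33, 9.20 and 8.83 in wild type and 9.54, 9.41, 9.26 and 9.28 in knockout ridges. Its groups overlapped, wild type replicate 4 was the lowest array, and its change was 0.19 (SE 0.12, limma adjusted p = 0.449). Efna5, a ligand known from axon maps, ran from 10.32 to 10.40 in wild type and from 10.25 to 10.45 in knockout ridges. Its change of -0.05 (SE 0.07) had a limma adjusted p of 0.724, and its 95% interval ran from -0.20 to 0.09, whose wider end is 1.15-fold. Over the 5 A ephrins the median change was -0.35, with 4 below 0, where 9706 of all 19356 genes were.

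Whether A ephrins changed unequally was asked for every pair of ligands within a class, as the difference between both genes on each array, set between genotypes by a two-sided exact permutation test over arrays. With 4 against 4 arrays the smallest p that this test can give is 0.0286, and 14 pairs were compared. Efna1 minus Efna4 ran from -0.45 to -0.03 in wild type and from 0.25 to 0.68 in knockout ridges, so the groups did not overlap, and the change of Efna1 minus that of Efna4 was 0.64 (exact p = 0.0286, adjusted p = 0.05). The same difference was 0.74 for Efna1 and Efna3 and 0.54 for Efna1 and Efna2, and the groups were also apart for Efna5 against Efna2, Efna3 and Efna4, all with the same exact p. Among Efna2, Efna3 and Efna4 the 3 pairs overlapped, with exact p-values from 0.143 to 0.486. None of the 14 pairs fell under the adjusted threshold of 0.05, since the 8 pairs at the smallest p reached exactly that value. A pair already at the smallest p could pass only if more pairs reached it, so the adjusted p cannot decide for a single pair.

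Efna1, Efna3 and Efna4 lie next to each other on chromosome 3 in RefSeq's annotation of GRCm38.p6, in the order Efna1, Efna3, Efna4. The neighbours were read after these values were seen. Krtcap2, Dpm3 and Slc50a1, the measured genes on the side of Efna1, were at -0.20, 0.00 and 0.07. Adam15, Dcst1 and Dcst2, on the side of Efna4, were at -0.02, 0.08 and -0.04. Gm15998, a noncoding RNA that overlaps Efna3, was at 0.15. None of these 7 passed (limma adjusted p from 0.330 to 0.994), so that of the 10 measured genes in this stretch Efna3 and Efna4 were the called ones.

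**Figure D2:**
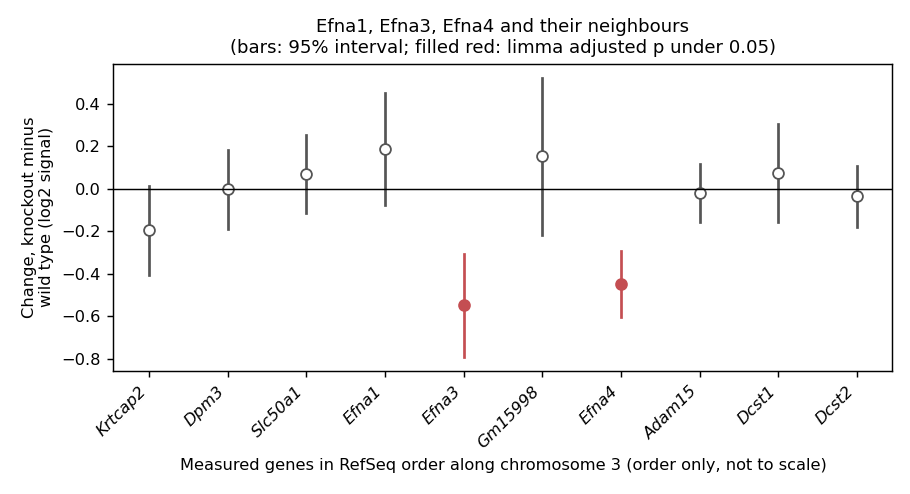
Change, knockout minus wild type (vertical axis, log2 signal), of Efna1, Efna3, Efna4 and the measured genes around them in RefSeq order along chromosome 3 (horizontal axis, order only), with 95% intervals. Efna3 at -0.55 and Efna4 at -0.45 lie below all of their neighbours, and Efna1 lies at 0.19.

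The start regions of the called Efna4 and Efna3 are shown with those of Efna2 and Efna1, which did not pass, since Sox proteins bind DNA through an HMG box at letters such as ACAAAG and ACAATG. These 4 genes were chosen after their values were seen. Each is 300 bases of RefSeq sequence in build GRCm38.p6, from 250 bases before the annotated start to 50 after it, written 5′ to 3′ on the strand of the gene, with matches to either motif on either strand in capitals. For Efna1 and Efna3, which have a second annotated start, the outer start is shown.
Efna4, chr3:89337979-89338278, minus strand: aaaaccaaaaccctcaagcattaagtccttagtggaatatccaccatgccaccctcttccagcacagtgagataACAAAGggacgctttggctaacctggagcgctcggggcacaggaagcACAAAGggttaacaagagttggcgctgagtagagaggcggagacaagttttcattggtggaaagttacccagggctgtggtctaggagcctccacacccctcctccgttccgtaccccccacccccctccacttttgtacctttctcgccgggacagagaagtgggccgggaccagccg
Efna2, chr10:80179232-80179531, plus strand: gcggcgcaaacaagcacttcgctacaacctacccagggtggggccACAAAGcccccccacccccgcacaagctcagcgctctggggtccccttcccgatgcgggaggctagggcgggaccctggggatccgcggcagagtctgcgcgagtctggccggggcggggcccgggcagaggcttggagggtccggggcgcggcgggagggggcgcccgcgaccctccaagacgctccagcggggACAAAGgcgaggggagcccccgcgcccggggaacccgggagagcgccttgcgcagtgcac
Efna3, chr3:89322890-89323189, minus strand: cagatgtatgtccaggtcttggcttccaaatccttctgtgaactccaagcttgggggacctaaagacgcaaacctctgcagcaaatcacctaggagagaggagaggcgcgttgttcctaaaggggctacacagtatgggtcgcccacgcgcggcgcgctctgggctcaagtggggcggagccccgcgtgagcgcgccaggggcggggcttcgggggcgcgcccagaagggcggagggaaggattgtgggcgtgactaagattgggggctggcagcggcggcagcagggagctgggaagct
Efna1, chr3:89280902-89281201, minus strand: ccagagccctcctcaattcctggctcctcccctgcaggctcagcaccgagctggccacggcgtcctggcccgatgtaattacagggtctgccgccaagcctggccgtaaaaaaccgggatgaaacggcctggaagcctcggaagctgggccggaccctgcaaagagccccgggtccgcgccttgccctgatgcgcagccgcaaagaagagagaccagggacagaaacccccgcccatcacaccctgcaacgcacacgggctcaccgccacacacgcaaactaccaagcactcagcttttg

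Efna4 held ACAAAG beginning 176 and 129 bases before the start, and Efna2 held it 205 and 10 bases before the start. Neither motif was found in either start region of Efna3 or of Efna1. For Ntn1, the other called member, and for Efnb3, Dcc and Unc5d no start region was available, so these were not searched. Of all 32851 start regions of this length, 28.6% held at least 1 of the motifs on either strand, 18.7% held ACAAAG, 12.6% held ACAATG and 2.4% held ACAAAG at least 2 times. Of the 28 start regions found for 25 of the 29 genes, 17.9% held at least 1 motif. ACAAAG was held by 7.1%, in each case at least 2 times, and these were the regions of Efna4 and Efna2. Both genes were chosen for display after their values were seen. At 17.9% and 7.1%, the shares with at least 1 motif and with ACAAAG lay below the 28.6% and 18.7% of all start regions. The share with ACAAAG at least 2 times, also 7.1%, lay above the 2.4% of all start regions. The median GC content was 65.8% in the 28 regions of the members and 52.7% in all start regions. Efna4, at 55.7% GC and with 11 CpG pairs, was the poorest of the A ephrins in both, while Efna2 had 74.7% and 31. Efna3 and Efna2 lay just on either side of the threshold (limma adjusted p = 0.0415 and 0.0600). Whether motifs and changes go together was not tested. A match is a stretch of letters and not a measured binding site, and nothing here measured binding.

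No B ephrin passed the threshold. Efnb3, a transmembrane ligand known from the midline of the spinal cord, gave 8.36, 8.67, 8.64 and 8.60 in wild type and 8.37, 8.18, 8.46 and 8.12 in knockout ridges. The groups overlapped through wild type replicate 1, and the change was -0.29 (SE 0.10, limma adjusted p = 0.183). Efnb2, which marks arteries, gave 10.46, 10.67, 10.54 and 10.39 in wild type and 10.72, 10.80, 10.64 and 10.59 in knockout ridges, a change of 0.17 (SE 0.08, limma adjusted p = 0.308). Efnb1, an X-linked ligand, ran from 10.07 to 10.59 in wild type and from 10.14 to 10.46 in knockout ridges and differed by -0.05 (SE 0.13). Efnb2 minus Efnb3 ran from 1.80 to 2.10 in wild type and from 2.19 to 2.62 in knockout ridges, a difference between the changes of 0.46. The groups were apart, and the exact permutation p was the smallest possible (0.0286, adjusted p = 0.05, not under the threshold).

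None of the 9 EphA receptors, which bind the A ephrins, passed. Of the 9, 7 lay above 0, where 9650 of all 19356 genes did, and their median was 0.12 against 0.00 over all genes. Only 4 of the 9 were brighter than the median gene. Epha10, a receptor without an active kinase, gave 6.19, 6.14, 6.24 and 6.32 in wild type and 6.37, 6.34, 6.47 and 6.43 in knockout ridges. Its groups parted by only 0.02, and its change was 0.18 (SE 0.07, limma adjusted p = 0.207). This signal was dim, with a level at percentile 28.3 of all genes. A second probe set of Epha10 overlapped between genotypes, with a change of 0.06 (SE 0.07). Epha2, an epithelial receptor, gave 7.98, 8.16, 8.06 and 8.03 in wild type and 8.0, 7.79, 7.94 and 7.82 in knockout ridges, a change of -0.17 (SE 0.07, limma adjusted p = 0.267).

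Epha7 and Epha4, 2 of the EphA receptors known for graded or segmental expression in embryos, both gave clear signal. Epha7 ran from 11.23 to 11.40 in wild type and from 11.39 to 11.48 in knockout ridges, with a change of 0.12 (SE 0.06, limma adjusted p = 0.358). Epha4 ran from 10.33 to 10.97 and from 10.44 to 10.90, with a change of -0.04 (SE 0.15). Epha3, a receptor of mesenchyme and of the spinal cord, varied most: it gave 8.16, 8.15, 8.92 and 7.76 in wild type and 8.79, 7.89, 8.98 and 8.92 in knockout ridges. High and low arrays stood in both groups, and its SD within a genotype, 0.50, stood at the 99.4th percentile of all genes. Its change of 0.39 (SE 0.27, limma adjusted p = 0.491) had a 95% interval from -0.21 to 1.0, which was the only interval among the 26 members without a call to reach beyond 1.5-fold. Epha1, Epha5, Epha6 and Epha8 were dim, below the median level of all genes, and differed by 0.22, 0.07, 0.04 and 0.12 (limma adjusted p from 0.347 to 0.921). Signal near the lower end of the scale understates differences.

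Of the 4 measured EphB receptors none passed. Ephb6, whose kinase is inactive, gave 7.89, 7.64, 7.88 and 7.87 in wild type and 7.59, 7.40, 7.61 and 7.72 in knockout ridges. Knockout replicate 4 lay above wild type replicate 2, all other knockout arrays lay below the wild type ones, and the change was -0.24 (SE 0.09, limma adjusted p = 0.209). Ephb4, the venous receptor of Efnb2, was among the steadiest members, from 10.52 to 10.64 in wild type and from 10.48 to 10.58 in knockout ridges, a change of -0.07 (SE 0.06, 95% interval -0.20 to 0.07). Ephb1 and Ephb3 differed by -0.05 and 0.06 (limma adjusted p = 0.845 and 0.837).

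Ntn1 fell furthest of the measured members. It encodes netrin-1, the main attractant read by DCC. Its signal was 7.33, 7.46, 7.73 and 7.39 in wild type and 6.81, 6.81, 6.93 and 6.68 in knockout replicates 1 to 4. The genotypes were 0.40 apart at their nearest arrays, and wild type replicate 3 stood highest. Ntn1 fell from 7.48 ± 0.18 to 6.81 ± 0.10 (SD, n = 4 each), a 1.59-fold difference (change -0.67, SE 0.10, limma adjusted p = 0.00786). It passed in each of the 8 fits that left out an array (limma adjusted p up to 0.0350). Its signal lay below the median of all genes. Ntn4, a basement membrane netrin, gave 6.30, 6.76, 6.27 and 6.33 in wild type and 6.40, 6.40, 6.29 and 6.38 in knockout ridges, and differed by -0.05 (SE 0.11, limma adjusted p = 0.854). Wild type replicate 2 stood above all other arrays of Ntn4, and without it the change was 0.07. Ntn1 minus Ntn4 ran from 0.70 to 1.46 in wild type and from 0.30 to 0.65 in knockout ridges, a difference between the changes of -0.62. The groups were apart, and the exact permutation p was the smallest possible (0.0286, adjusted p = 0.05 over the same 14 pairs, not under the threshold).

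**Figure D3:**
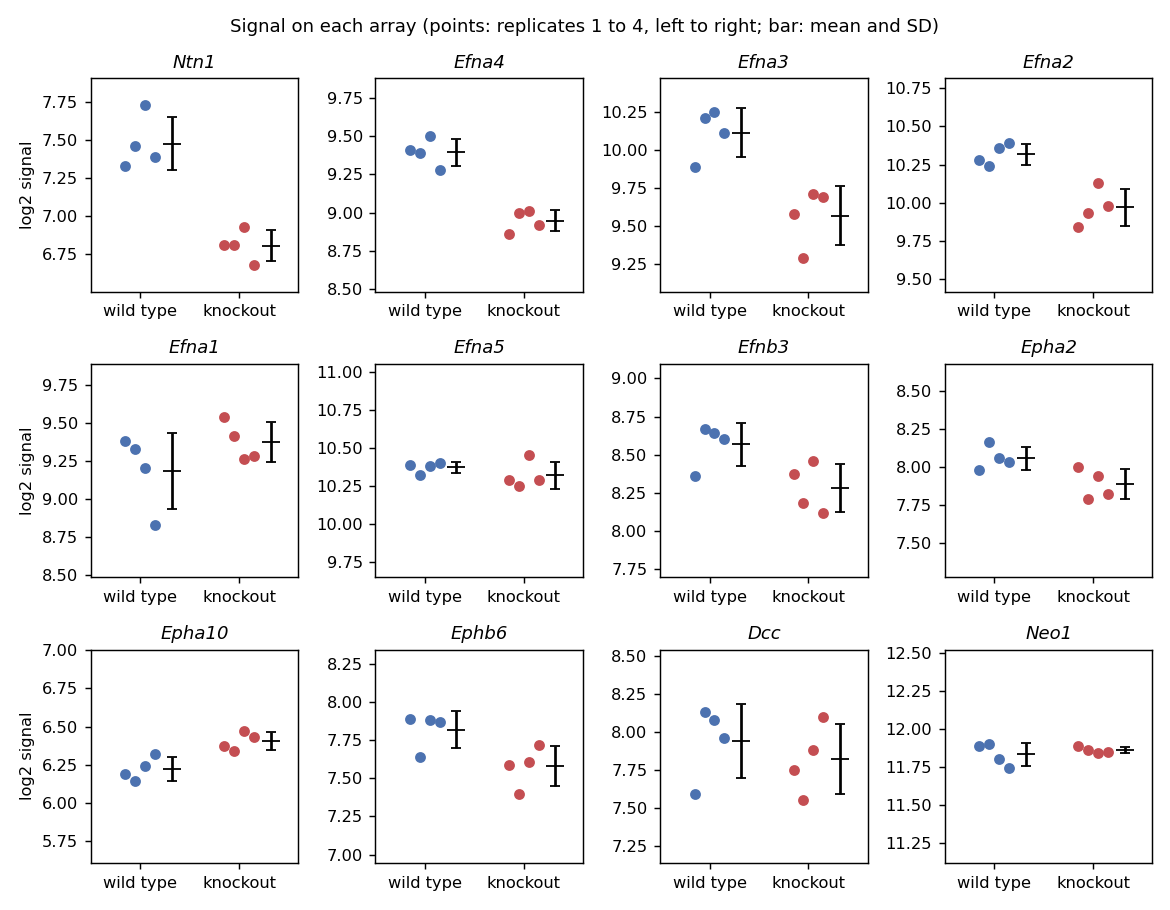
Log2 signal (vertical axis, each panel spanning 1.4 units) on the 4 wild type and 4 knockout arrays for 12 of the genes, with mean and SD. The groups are apart in Ntn1, Efna4, Efna3, Efna2 and Epha10 and overlap in the other 7.

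No receptor of netrin-1 passed the threshold. Dcc, the attractive receptor, gave 7.59, 8.13, 8.08 and 7.96 in wild type and 7.75, 7.55, 7.88 and 8.10 in knockout ridges. Low and high arrays stood in both groups, and the change was -0.12 (SE 0.14, limma adjusted p = 0.684). Neo1, which encodes neogenin, a relative of DCC, gave 11.89, 11.90, 11.80 and 11.74 in wild type and 11.89, 11.86, 11.84 and 11.85 in knockout ridges. Its change of 0.03 (SE 0.06) had a 95% interval from -0.11 to 0.17. Unc5c, the UNC5 receptor with the steadiest signal, ran from 11.55 to 11.70 and from 11.61 to 11.71, with a change of 0.02 and an interval from -0.12 to 0.16. Unc5b, a receptor of vessels, ran from 9.37 to 9.81 and from 9.42 to 9.76, with a change of 0.01 (interval -0.23 to 0.25). Unc5a and Unc5d were dim and differed by 0.01 and -0.03. The limma adjusted p-values of the 6 receptors ran from 0.684 to 0.977, and in all 6 the 95% interval excluded a signal change of 1.5-fold. For the dim Unc5a and Unc5d this bounds the array signal, which understates differences in RNA.

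Other genes of these pathways were read from lists. Of 15 measured further ligands and coreceptors (other netrins, netrin-Gs, RGM and FLRT proteins, draxin and partners) 0 passed limma's threshold, and the median change was 0.05. At an unadjusted p under 0.05, 2 of them were higher and 2 lower, where 7.29% and 9.38% of all genes were. The lowest p-values were those of Rgmb (-0.25), a ligand of neogenin, Draxin (-0.38), a ligand of DCC, and Lrrc4 (0.28), a partner of netrin-G proteins, with limma adjusted p from 0.116 to 0.212. Of 37 genes that act below Eph receptors and ephrins 1 rose and 0 fell, against 0.362% of all genes higher and 1.08% lower, and the median change was -0.06. At an unadjusted p under 0.05, 2 of the 37 were higher and 7 lower, where 7.29% and 9.38% of all genes were. In 5 of them all knockout arrays lay below all wild type arrays and in 1 all lay above, against 6.47% and 4.04% of all genes. Anks1b, of an adaptor family that binds Eph receptors, rose from 6.83 ± 0.11 to 7.44 ± 0.20 (SD, n = 4 each), by 0.62 (SE 0.10, limma adjusted p = 0.0192). It missed without wild type replicate 2 or knockout replicate 4 (limma adjusted p up to 0.0736) and without moderation (0.105). Kalrn, a guanine nucleotide exchange factor, and Chn1, a Rac regulator used by EphA4, were at -0.25 and -0.30 (limma adjusted p = 0.0740 and 0.107), in both with no overlap of the genotypes.

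Of 25 genes that act below netrin receptors 0 rose and 1 fell, against 0.362% of all genes higher and 1.08% lower. Their median change was 0.01. At an unadjusted p under 0.05, 0 were higher and 2 lower, where 7.29% and 9.38% of all genes were. Myo10, a myosin that carries cargo such as DCC into filopodia, fell from 10.43 ± 0.11 to 10.06 ± 0.08 (SD, n = 4 each), or 1.29-fold (change -0.37, SE 0.08, limma adjusted p = 0.0462). It missed the threshold in all 8 fits that left out an array (limma adjusted p up to 0.139). Of the 11 other settings on all arrays, Myo10 passed in 5. Enah, an actin regulator, was at -0.23 (SE 0.07, limma adjusted p = 0.142), and its relative Evl was at -0.15.

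**Figure D4:**
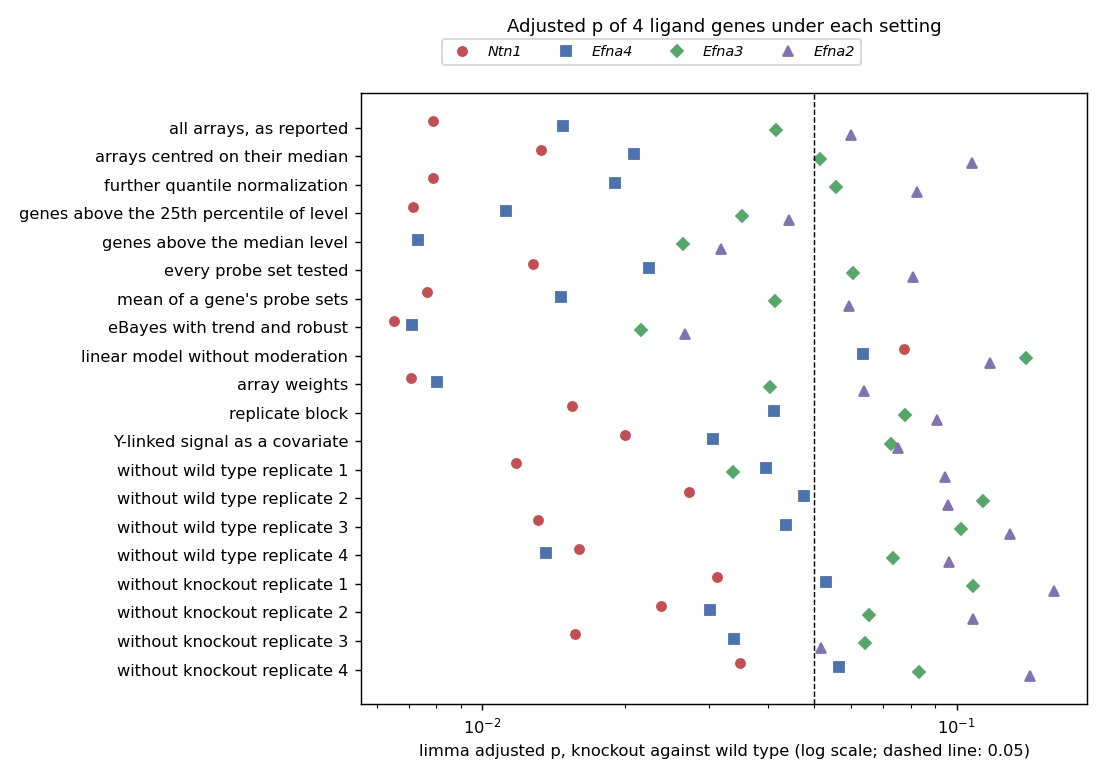
Limma adjusted p (horizontal axis, log scale, dashed line at 0.05) of Ntn1, Efna4, Efna3 and Efna2 for all arrays as reported and for each of the 19 other settings. Ntn1 lies right of the line once, without moderation, and has no point among genes above the median level because it was filtered out there. Efna2 lies left of the line in 3 settings.

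Markers of some tissues in the dissected ridge differed between genotypes beside these ligands, and their part in the results was not tested. Of all 19356 genes, 0.362% were called higher and 1.08% lower, and 9650 lay above 0 and 9706 below. The mean log2 signal of 11 nephric duct markers ran from 8.93 to 9.14 in wild type and from 9.26 to 9.32 in knockout ridges, with 11 of 11 above 0 and Ret (0.41) higher past the threshold. That of 10 somite markers ran from 8.02 to 8.20 and from 7.79 to 8.0, with Uncx (-0.88) and Meox2 (-0.50) lower and 6 of 10 below 0. That of 12 neuronal markers ran from 7.75 to 8.06 and from 7.53 to 7.82, with 11 of 12 below 0 and Dcx (-0.93) lower. That of 11 metanephric mesenchyme markers ran from 9.94 to 10.11 and from 9.87 to 9.98, with 7 of 11 below 0 and Six2 (-0.48) lower. That of 9 erythroid markers ran from 7.84 to 8.39 and from 7.76 to 8.02, with 9 of 9 below 0, Rhd lowest in p (-0.51), and none past the threshold.

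The groups were apart in the nephric duct and somite lists and overlapped in the neuronal, mesenchyme and erythroid lists and in the lists that follow. In the somite list they parted only between 8.02 and 8.0, and the median change over its genes was -0.04. Meox1 had the largest change of that list, -0.94, and did not pass (limma adjusted p = 0.0517). The 12 endothelial markers ran from 9.11 to 9.46 in wild type and from 9.24 to 9.53 in knockout ridges, with 10 of 12 above 0 and Emcn lowest in p (0.18). The 6 neural crest markers ran from 7.89 to 8.05 and from 7.96 to 8.14, with 5 of 6 above 0 and Ret and Erbb3 (0.36) higher. Ret is the same gene and value as in the nephric duct list. Foxd3 had the largest change of the crest list and went the other way, at -0.48 (limma adjusted p = 0.229). The 10 markers of neural tube progenitors ran from 6.75 to 6.98 and from 6.92 to 7.0, with 9 of 10 above 0 and Dbx1 lowest in p (0.23). The 9 endoderm markers ran from 7.17 to 7.59 and from 7.23 to 7.64, with Krt18 lowest in p (0.19). Wild type replicate 1 and knockout replicate 2 stood apart in 2 genes of this list, Shh (8.5 and 8.58, the other arrays from 6.34 to 6.99) and Foxa1 (7.66 and 7.91, the others from 6.50 to 6.90). Epha4 was highest on the same arrays, at 10.97 and 10.90, and its change was 0.09 without the former and -0.15 without the latter. Ntn1 and Efna4 passed without either array, whereas Efna3 missed without knockout replicate 2 (limma adjusted p = 0.0654). What part these arrays play in the results was not tested. Of the lists, 2 of the 10 neural tube progenitor markers and 2 of the 9 endoderm markers were brighter than the median gene. Of the 8 fits that left out an array, Meox2 passed in 8, Uncx in 7, Ret in 3, Six2 and Dcx in 1 each and Erbb3 in 0.

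**Figure D5:**
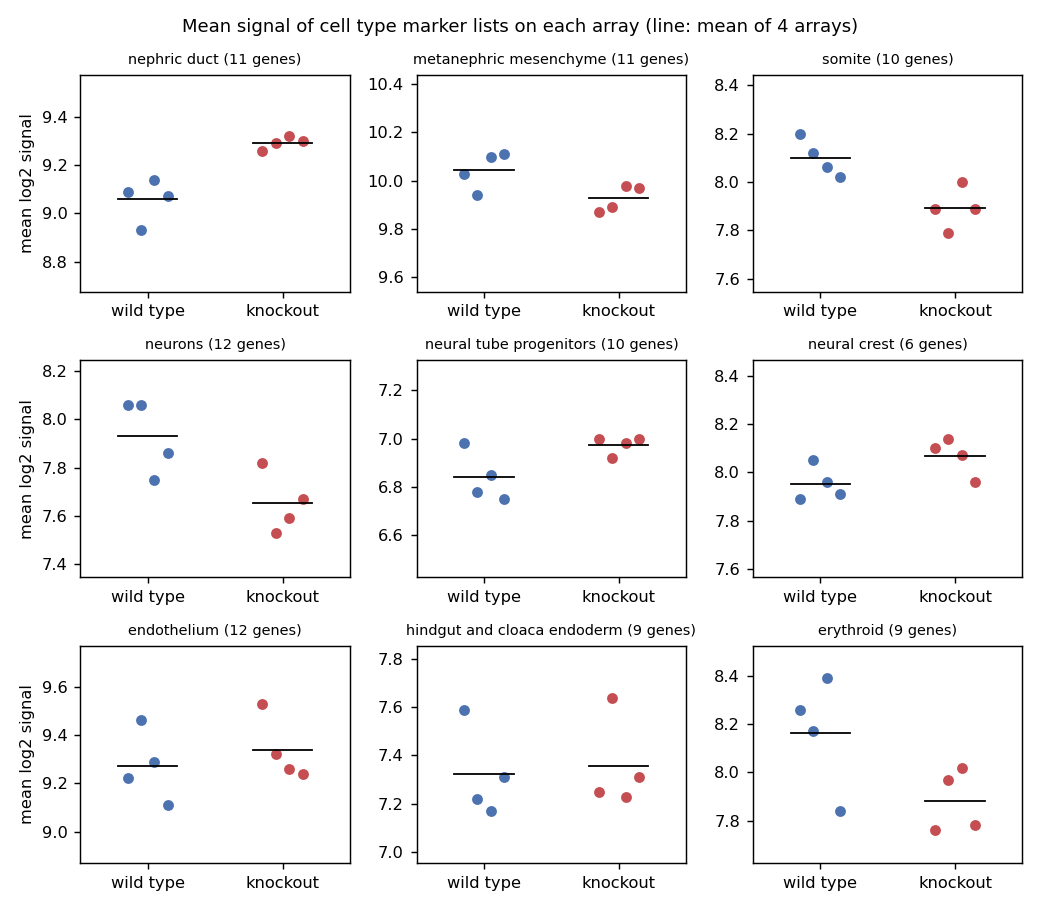
Mean log2 signal (vertical axis) of each marker list on the 4 wild type and 4 knockout arrays, with the mean of each group as a line. The nephric duct list (8.93 to 9.14 against 9.26 to 9.32) and the somite list (8.02 to 8.20 against 7.79 to 8.0) are apart, and the other lists overlap.

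The Y-linked genes gave signal in wild type replicate 1 and in knockout replicates 3 and 4, so this signal was not spread evenly between genotypes. With the mean Y-linked signal as a covariate the changes of Ntn1, Efna4 and Efna3 were -0.65, -0.45 and -0.55, and their limma adjusted p-values were 0.0200, 0.0306 and 0.0726.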

How the data were processed

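The 8 arrays were hybridised with RNA from 4 wildtype and 4 Sox11-/- ridges, groups being taken from the sample titles. The authors deposited 1 log2 signal for each of 27478 probe sets, made with RMA and Partek per the submitters' processing notes, which as given here hold no versions, settings or build. The log2 scale was inferred from the range of the deposited values, 4.30 to 14.62. RMA quantile-normalizes the arrays, so a shift of all transcripts together cannot be seen. The number of arrays limits the precision.

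Probe sets were named from the platform annotation, and 21103 had 1 symbol, 1531 several and 4844 none. Every gene was fitted with limma 3.58.1 under R 4.3.3 (functions lmFit and eBayes, genotype as the only term, two-sided), with Benjamini-Hochberg adjustment over 19356 genes and a threshold of 0.05. On simulated data with the same genes it recovered 70 of 100 changes of 0.5 and 97 of 100 changes of 1. Pairs of ligands were compared with exact permutation tests (scipy 1.17.1). Figures were drawn with matplotlib 3.10.9. Values were set out for every called member, for those with an unadjusted p under 0.05 and for the lowest p of each class; of pathway lists the called genes and the 3 lowest p were named, and of marker lists the called genes and the lowest p. Efna1, Efna5, Efnb1, Efnb2, the steadiest or most variable receptors and the markers Meox1, Shh and Foxa1 were given values after they were seen. Members and lists were chosen with earlier results of these data known. The labels' replicate numbers were not taken as pairs.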

Additional observations from a re-analysis of the deposited data

Results flagged for a closer look

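In 5 of 60 groups of 4 arrays (29 genes and Sox11, in both genotypes) 1 array stood apart from the other 3 by Dixon's criterion, and chance sets about 1 in 20 groups apart. Epha3 was low in knockout replicate 2, at 7.89 with the others from 8.79 to 8.98, and without that array its change was 0.65 (limma adjusted p = 0.190). Epha4 was high in the same knockout replicate 2, at 10.90 with the others from 10.44 to 10.46, an array on which Shh and Foxa1 were high too, and without it the change was -0.15 (limma adjusted p = 0.624). Ephb6 was low in wild type replicate 2, at 7.64 with the nearest at 7.87, and without it the change was -0.30 (limma adjusted p = 0.170). Ntn4 was high in wild type replicate 2, at 6.76 with the nearest at 6.33, and low in knockout replicate 3, at 6.29 with the nearest at 6.38.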

How the results depend on the processing

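The count of 3 lower members was 0 in a linear model without moderation, where the adjusted p-values of Ntn1, Efna4 and Efna3 were 0.0774, 0.0635 and 0.140, and ran from 1 to 3 when an array was left out (1 without knockout replicate 1 or 4). In the other settings on all arrays it was 2 to 4, and no member was higher in any setting. Over all genes the 279 calls became 55 without moderation, 166 with the replicate number as a block, 151 with Y-linked signal as a covariate, and 107 to 243 when an array was left out. The replicate number as a block left 2 lower members, Ntn1 and Efna4 (limma adjusted p = 0.0155 and 0.0411), with Efna3 at 0.0779. Same-numbered arrays correlated in their deviations at -0.17 to 0.09, and 2 of 8 arrays correlated best with their own number. Efna3 also missed after median centring (limma adjusted p = 0.0516), a further quantile normalization (0.0556) and a test of every probe set (0.0606). Efna2 passed above the 25th percentile of level, above the median level and with trend and robust moderation (limma adjusted p = 0.0442, 0.0318 and 0.0268). Ntn4, at -0.05 and uncalled, ran from -0.094 to 0.069 when an array was left out and turned sign without wild type replicate 2 (0.069). Changes of dim probe sets are understated, which touches the 10 members below the median level.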
